A study of Homo sapiens with 24 samples.

Results

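The cytosolic ribosomal protein genes are described here across 3 human colorectal cancer cell lines with and without β-CATENIN. Members were the protein-coding genes whose symbol is RPL or RPS followed by a number and at most one of the letters A, L or X, together with RPLP0, RPLP1, RPLP2 and RPSA. This rule gave 81 of the 58051 gene identifiers in the files, 49 of the large and 32 of the small ribosomal subunit. The rule used names only and no measured value.

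HT29, HCT116 and SW480 cells were each represented by 2 wild type (WT) clones with the genotype CTNNB1+/+ and 2 knock-out (KO) clones with the genotype CTNNB1-/-, in which a frameshifting deletion had been made in both alleles by CRISPR/Cas9. The WT clones had also gone through the CRISPR/Cas9 procedure and single-cell cloning and had kept their CTNNB1 sequence. HT29 and SW480 carry mutations of APC, whereas HCT116 carries an activating mutation of CTNNB1, and the SW480 KO cells became senescent on long culture. The clones were WT 11, WT 40, KO 28 and KO 38 in HT29, WT 4, WT 6, KO 44 and KO 47 in HCT116, and WT 4, WT 5, KO 17 and KO 21 in SW480. Polyadenylated RNA was sequenced for each clone in round A and in round B, which gave 24 libraries, and a library is named by clone and round, as in KO 28A. A group of 4 libraries thus holds 2 clones, so that p-values measure the spread between these libraries, part of which may be technical.

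Each ribosome contains 1 copy of nearly every ribosomal protein, and the genes of these proteins are among the most strongly transcribed in growing cells. Their mRNAs begin with a run of pyrimidines, the TOP motif, through which mTOR signaling sets their translation. MYC, a classical target of β-CATENIN and TCF in the colon, is known to promote ribosome production. Single members also have roles of their own, as RPL5 and RPL11 bind the 5S rRNA and restrain MDM2, and mutations in several members cause Diamond-Blackfan anemia.

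The bases around the annotated start are shown for members that the results turn on, because the pyrimidine run at this place is what the family is known for. RefSeq windows of GRCh38.p14 were found for 64 of the 81 members, with 79 windows in all. Capitals mark the pyrimidine motifs searched on the forward strand within 15 bases of the start, with overlapping matches merged. One motif was CTTTT, another was spelled CTTTC, and the last of the 3 was spelled CCTTT. RPL10 has 3 windows, of which 2 held a motif and 1 did not, and one with a motif is shown. RPS27, RPL31, RPL10 and RPSA are among the members that were higher in HCT116 KO cells and had a match.
RPS27 (chr1:153990747-153990776, plus strand): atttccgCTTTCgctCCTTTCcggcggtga
RPL31 (chr2:101002274-101002303, plus strand): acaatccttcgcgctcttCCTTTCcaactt
RPL10 (chrX:154398362-154398391, plus strand): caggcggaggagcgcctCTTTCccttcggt
RPSA (chr3:39406705-39406734, plus strand): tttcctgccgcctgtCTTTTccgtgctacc
RPLP0 was higher in HCT116 KO cells, RPL14 lower and RPS27L higher in SW480 KO cells, and their windows held none of the 3 motifs.
RPLP0 (chr12:120201097-120201126, minus strand): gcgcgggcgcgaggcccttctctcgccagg
RPL14 (chr3:40457324-40457353, plus strand): gggcgggtcttcttccttctcgcctaacgc
RPS27L (chr15:63157463-63157492, minus strand): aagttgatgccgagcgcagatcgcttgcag

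Pyrimidine runs are visible in the first 4 windows. The windows of RPLP0 and RPL14 hold unbroken pyrimidine runs too, but none of the 3 motifs searched. At least 1 of the 3 motifs was in 49 of the 79 member windows, or 62.0%, against 9.16% of 35116 windows of all genes, and in at least 1 window of 46 members. In the whole windows of 250 bases before to 50 after the start, searched on both strands, TCTCGCGA was in 16.5% of member windows against 1.15% of all, and CCGGAAGT in 13.9% against 4.14%. CACGTG, the E-box that MYC binds, was in 5.06% against 7.26%. ATCAAAG, a core of the TCF binding site, was in 1.27% against 2.62%, and the 1 member window with it was that of RPS27. A match is a description of letters and does not show binding.

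Libraries held from 22297049 to 29068378 reads on genes. CTNNB1, the targeted gene, had normalized counts of 5883 to 6113 in HT29 WT and 256 to 337 in HT29 KO libraries, of 10512 to 12800.1 and 187 to 255 in HCT116, and of 43114 to 50939.5 and 839 to 1312 in SW480, so that it was low in every KO library. A normalized count is the number of reads on a gene divided by the size factor of the library. The epithelial markers EPCAM, KRT8, KRT18 and KRT19 were present in every library, whereas VIL1 was below a normalized count of 10 in 12 libraries, LGALS4 in 16 and CDX2 in 6. The leukocyte markers PTPRC and CD68 were below 10 in all 24 libraries, and of the fibroblast markers COL3A1 was below 10 in 20, while COL1A1 ranged from 12.2 to 438.

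Most members were expressed at high levels in every library. RPL4 (mean normalized count 70110.0) and RPL13A (67880.0), both of the large subunit, had the highest means over the 24 libraries. RPL4 lies on GRCh37 chromosome 15 from 66790353 to 66816870, and RPL13A on chromosome 19 from 49990767 to 49996314. Per kb of coding sequence, RPL13A ranked 2 of 81 with 111461 normalized counts per kb, and RPL4 ranked 30 with 54731. The tissue-restricted paralogs were at the other end. RPL10L had 0 reads in all 24 libraries, RPL39L reached a normalized count of at most 2.88 and RPL3L of at most 20.2. RPL10L and RPL39L never had more than 3 reads in a library, the level taken as not detectable at this depth.

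A further set of low values concerned members that share exons with annotated readthrough genes. RPL17, RPL36A and RPS10, which encode ordinary ribosomal subunits, had mean normalized counts of only 201, 85.8 and 48.1. Of their coding bases, 100% of RPL17 lay in exons of RPL17-C18orf32, 94.3% of RPL36A in exons of RPL36A-HNRNPH2 and 92.1% of RPS10 in exons of RPS10-NUDT3. How reads that fall on both genes were counted is not given in the sources used here, so that the levels of these members are uncertain. Ribosomal protein genes also have many processed copies: 1583 pseudogene loci bore the name of one of 77 members. Reads on the pseudogenes of a member were a median of 1.23% of the reads on both, and up to 91.3% for RPL36A.

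HT29 KO 38B stood apart from the other libraries. Members took 14.1% of its reads, against 7.03% to 9.45% in the other 7 HT29 libraries, 6.64% to 9.81% in HCT116 and 4.71% to 5.83% in SW480. In HT29 the share was 8.35% ± 0.882 (SD, n = 4) in WT and 9.15% ± 3.33 (n = 4) in KO libraries, and 7.49% ± 0.428 (n = 3) in KO libraries without KO 38B. HCT116 libraries had 7.35% ± 0.704 in WT and 8.75% ± 1.03 in KO, with ranges of 6.64% to 8.32% and 7.65% to 9.81% that overlapped. In SW480 the share was 5.67% ± 0.150 in WT and 5.16% ± 0.460 in KO libraries, where KO 17A (4.71%), KO 17B (4.85%) and KO 21B (5.39%) were below the WT range of 5.50% to 5.83%, and KO 21A (5.70%) was inside it. These are shares of the RNA in a library, and total RNA per cell was not measured. As the libraries are bulk RNA, fewer cells with a transcript and less transcript per cell cannot be told apart.

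**Figure D1:**
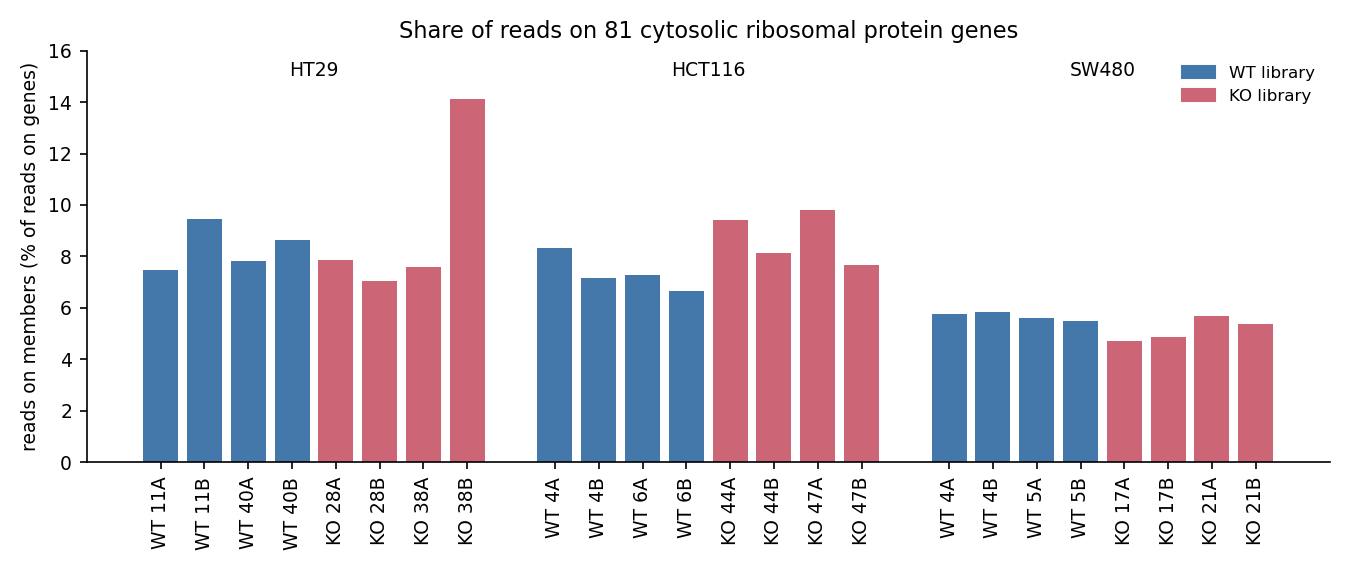
Bars give the percent of reads on genes that fell on the 81 members in each of the 24 libraries, WT in blue and KO in red. HT29 KO 38B reached 14.1%, and the other libraries lay between 4.71% and 9.81%.

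The rounds of clone KO 38 differed across the whole family. Over the 75 members with a normalized count of at least 100 in all libraries, round B exceeded round A in this clone for all 75, with a median log2 ratio of 1.19, a range of 0.50 to 1.83, and 51 above 1. In the other 11 clones the median of the members lay between −0.34 and 0.41. Round B was also higher for all 75 in HT29 WT 11, and for 0 of them in HT29 KO 28. Other genes moved between the rounds of KO 38 with their coding length. Among 8250 other genes, the median log2 ratio of round B over A in KO 38 fell from 0.91 for coding sequences up to 0.5 kb (678 genes) to −0.81 for those over 4 kb (626 genes). In the other 11 clones the shortest class had medians from −0.17 to 0.29. Smaller trends with length were present in several of them. From the shortest to the longest class, the median went from 0.29 to −0.48 in HT29 WT 11 and from −0.13 to 0.25 in HT29 KO 28. All HCT116 clones had the higher median in the longest class. It went from −0.17 to 0.37 in WT 4, −0.005 to 0.20 in WT 6, −0.13 to 0.24 in KO 44 and −0.12 to 0.46 in KO 47. In SW480 WT 5 it was −0.002 and 0.04. Members are short, and in KO 38 their medians were 1.41 for the 46 up to 0.5 kb and 1.06 for the 27 between 0.5 and 1 kb, above those of other genes of the same length. What part coding length had in the values of KO 38B was not tested, and values without this library stand beside the HT29 results that rest on it.

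**Figure D2:**
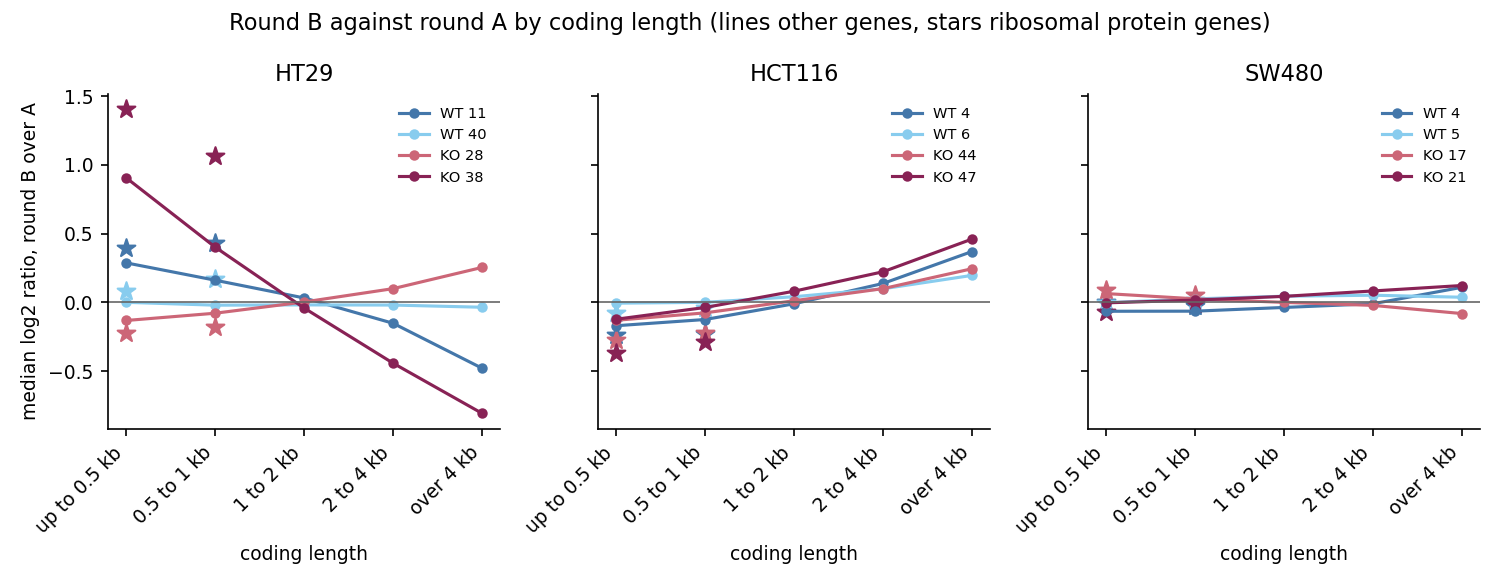
The median log2 ratio of round B over round A is plotted against coding length for each clone, with lines for other genes and stars for members. In HT29 KO 38 the line falls from 0.91 to −0.81 and the stars lie at 1.41 and 1.06, whereas the shortest class of other genes lies between −0.17 and 0.29 in the other 11 clones.

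Members rose and fell together between libraries of a group. Across the 24 libraries, the deviations of 2 members from their group means had a median Pearson correlation of 0.86 over all pairs of the 75 members, and of 0.61 without HT29 KO 38B. Members of a library share its depth and composition, so that these correlations are a description only.

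Whether loss of β-CATENIN changed the levels of these genes was asked within each line by comparing 4 KO with 4 WT libraries. In HCT116, members were higher in KO cells. Of 78 members tested, 12 were called higher and 0 lower by limma with Benjamini-Hochberg adjusted p under 0.05 over all tested genes, while 8.05% of all tested genes were called higher and 5.93% lower. The called members thus made up 15.4% of those tested. The median log2 fold change (KO minus WT) of the members was 0.25, against −0.01 over all genes, and 75 of 78 values were positive. At an unadjusted p under 0.05 there were 36 members higher and 0 lower, and edgeR and DESeq2 also called 0 lower. None of the 78 was a differentially expressed gene (DEG) with an absolute log2 fold change over 1, against 5.06% of all genes.

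RPL10, a large subunit protein at the site where the subunits join, is encoded on GRCh37 chromosome X from 153618315 to 153637504 and had the largest rise. Its normalized counts in HCT116 were 25120.4, 22048, 22341 and 13561 in WT 4A, 4B, 6A and 6B, and 31793, 28825, 37441 and 30698 in KO 44A, 44B, 47A and 47B. All 4 KO libraries lay above all 4 WT libraries, among which WT 6B was low. The log2 fold change was 0.66 (SE 0.17, limma adjusted p = 0.0263), or 1.58-fold.

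RPS27, a zinc finger protein of the small subunit, lies on chromosome 1 from 153963238 to 153964631. It had 10831, 10054, 10807 and 7598 normalized counts in the WT libraries in the same order, and 16004, 12370.1, 17554 and 12774 in the KO libraries. The groups did not overlap, and round A was the higher round in both KO clones. RPS27 rose by 0.58 on the log2 scale (SE 0.15, adjusted p = 0.0229).

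RPL31, on chromosome 2 from 101618691 to 101640494, sits near the exit of the nascent chain. Normalized counts were 13194, 11268, 12438 and 9241 in WT and 19032, 15224, 18384 and 13884 in KO libraries, again without overlap. It rose by 0.53 on the log2 scale (SE 0.14, adjusted p = 0.0246).

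RPLP0 anchors the lateral stalk of the large subunit, which recruits elongation factors, and lies on chromosome 12 from 120634502 to 120639038. WT libraries had 87115, 74378, 70438 and 59647 normalized counts, and KO libraries 106756, 94584, 107789 and 94835. Every KO library was above every WT library, and the log2 fold change was 0.48 (SE 0.11, adjusted p = 0.0172). RPLP0 is in wide use as a reference gene for quantitative PCR. Of the other stalk genes, RPL12 rose by 0.36 (SE 0.10, adjusted p = 0.0351), while RPLP1 (0.20, adjusted p = 0.315) and RPLP2 (0.16, adjusted p = 0.482) did not pass the test.

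In HCT116, RPSA, a small subunit protein known also as the laminin receptor precursor, had 56926, 50439, 51863 and 49358 normalized counts in WT and 71082, 62252, 68694 and 62098 in KO libraries. The groups did not overlap, and the log2 fold change was 0.34 (SE 0.09, adjusted p = 0.0223). RPS6, the substrate of S6 kinases downstream of mTOR, did not pass (log2 fold change 0.31, adjusted p = 0.0792) but was called with the round as a block (adjusted p = 0.0248). RPL5 (0.16, adjusted p = 0.336) and RPL11 (0.21, adjusted p = 0.259), the binders of 5S rRNA, did not pass with or without the block. Of the tested members, 6 of 46 (13.0%) were called higher in the large and 6 of 32 (18.8%) in the small subunit, against 8.05% of all genes. With the block these counts were 14 and 16, where 8.89% of all genes were called higher.

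The count in HCT116 depended on how clones and rounds were treated. With the round as a block, which paired the libraries in this line, 30 members were called higher and 0 lower, or 38.5% of those tested against 8.89% of all genes, and all 12 calls were kept. With the reads of a clone summed or the clone as a random effect, 0 were called, as also without clone WT 6, and without KO 44A the count was 1.

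In SW480 the direction was the other one, which clone KO 17 showed (median log2 fold change −0.23) and KO 21 did not (0.01). Of 79 members tested, 15 were called lower and 1 higher, which is 19.0% and 1.27% of those tested, whereas 22.1% of all tested genes were called lower and 26.1% higher. The share called lower was thus near that of all genes, and the share called higher was far below it. The median log2 fold change was −0.11 over the members and −0.004 over all genes, and 14 of 79 values were positive. No member was a DEG, against 17.5% of all genes.

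RPS10 had the largest fall, but from few reads. Its normalized counts were 40.4, 45.9, 40.5 and 53.8 in WT 4A, 4B, 5A and 5B, and 29.2, 17.4, 28.9 and 29.8 in KO 17A, 17B, 21A and 21B. The KO libraries lay below the WT libraries, and KO 17B was the lowest. RPS10 fell by 0.78 on the log2 scale (SE 0.23, adjusted p = 0.0171), with the reservation about its shared exons on chromosome 6 from 34385231 to 34393846.

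RPL14, a large subunit protein on chromosome 3 from 40498783 to 40510078, had the smallest adjusted p of the members in SW480. WT libraries had 29441, 28521, 26296 and 27545 normalized counts, and KO libraries 21496, 22055, 22132 and 21533. The 4 KO values were close to each other and all below WT. RPL14 fell by 0.36 on the log2 scale (SE 0.06, adjusted p = 0.000514), and was lower in KO 17 (−0.36) as in KO 21 (−0.36).

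RPL5, on chromosome 1 from 93297570 to 93307481, had 24421, 25881, 23251 and 24002 normalized counts in WT and 19608, 20072, 22373 and 21781 in KO libraries. It fell by 0.22 (SE 0.07, adjusted p = 0.0191) with no overlap, and its partner RPL11 had −0.17 (adjusted p = 0.0575). RPL10 fell by 0.21 (adjusted p = 0.0239), from 32241 ± 1139 to 27993 ± 1848 normalized counts (mean ± SD, n = 4 each). RPS27 fell by 0.29 (adjusted p = 0.0399), where KO 21A with 8266 lay inside the WT range of 7686 to 8552.

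RPS27L was the 1 member higher in SW480 KO cells. It is a paralog of RPS27 on chromosome 15 from 63418071 to 63450220. Its normalized counts were 860, 962, 1021 and 964 in WT and 1159, 1247, 1329 and 1142 in KO libraries, so that all KO values exceeded all WT values. RPS27L rose by 0.36 on the log2 scale (SE 0.08, adjusted p = 0.00412), while RPS27 fell. RPS27L in HCT116 was at 1669 ± 449 in WT and 1679 ± 133 in KO cells, with a log2 fold change of 0.05 (adjusted p = 0.888).

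The number called lower in SW480 moved with the clones. It was 47 without clone KO 21, 3 without KO 17 and 3 without WT 4, and 0 with the reads of a clone summed. The shares of all genes under these settings are not given, so that the counts show only how far they moved. RPL14 and RPS27L kept their call in 25 of 26 alternatives each, and RPS27 in 13.

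In HT29, no change of a member was called. Of 78 members tested, limma called 0 higher and 0 lower, with 2.08% and 0.476% of all genes called, and edgeR and DESeq2 called 0 as well. At an unadjusted p under 0.05 there was 1 member, RPS4X. No member was a DEG, against 2.3% of all genes. The median log2 fold change was 0.16, against 0.03 over all genes, with 68 of 78 positive. Without KO 38B the median was −0.12 (0.02 over all genes), 12 were positive, 2 reached an unadjusted p under 0.05 and 0 were called, so that the sign of the median rested on that library. KO and WT libraries overlapped for all 78 members.

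RPS4X, the X-linked gene of a small subunit protein on chromosome X from 71475529 to 71497098, had 34039, 41889.5, 46490.5 and 45789.5 normalized counts in WT 11A, 11B, 40A and 40B, and 61948, 53061, 44814 and 93582 in KO 28A, 28B, 38A and 38B. Of the KO values, 3 were above all WT values and KO 38A was inside their range. The log2 fold change was 0.55 (SE 0.24, limma adjusted p = 0.296), and without KO 38B it was 0.34 (SE 0.16, adjusted p = 0.332). RPLP0 in HT29 had −0.03 (SE 0.22, adjusted p = 0.963) with all libraries and −0.20 (SE 0.16, adjusted p = 0.558) without KO 38B. RPL10 had 0.16 (SE 0.25, adjusted p = 0.775) with all libraries and 0.13 (SE 0.27, adjusted p = 0.845) without KO 38B. The standard errors in HT29 had a median of 0.30 over the members with all libraries and of 0.16 without KO 38B, against 0.11 in HCT116 and 0.08 in SW480.

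**Figure D3:**
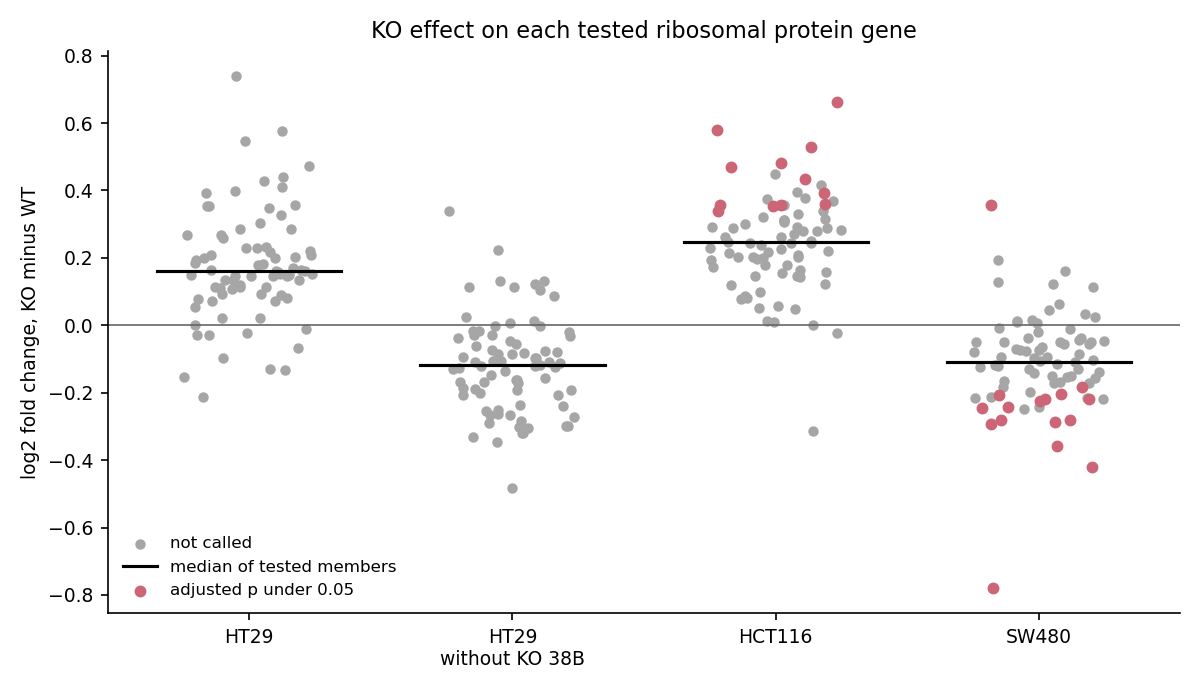
Each point is the log2 fold change (KO minus WT) of a tested member, red where the adjusted p was under 0.05, with black lines for medians. The medians were 0.16 in HT29, −0.12 in HT29 without KO 38B, 0.25 in HCT116 and −0.11 in SW480.

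Coding length did not separate members and other genes in the same way in the 3 lines. In HCT116 the median log2 fold change was 0.27 for the 46 members up to 0.5 kb and 0.04 for other genes of this length. In SW480 these medians were −0.09 and 0.07. In HT29 they were 0.19 and 0.25, and without KO 38B −0.09 and 0.05.

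The effect of the knock-out was then compared between lines by the interaction of line and genotype over all 24 libraries. Between HCT116 and SW480 it differed for 5 of 78 members, all more positive in HCT116, while 12.1% of all genes were called. The difference was 0.87 (SE 0.28, adjusted p = 0.0476) for RPS27, 0.87 (SE 0.27, adjusted p = 0.0381) for RPL10 and 0.65 (SE 0.21, adjusted p = 0.043) for RPLP0. RPL29 had a difference of 0.62 (SE 0.20, adjusted p = 0.0478) and was named after its values were seen. The median difference over the members was 0.35, against −0.02 over all genes. This result rested on single libraries, since the count ran from 0 (without HCT116 WT 6B) to 5 when a library was left out. In the fits within lines, 5 members were called higher in HCT116 and lower in SW480. The share of all genes called in opposite directions is not given, so that this count cannot be set against it. Among the 5 were RPS27 and RPL10 by the rule for named genes, and RPS2 and RPS15A, which were named after their values were seen. Of the coding bases of RPS15A, 54.6% lay in exons of another annotated gene, so that its level is uncertain.

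Between HT29 and SW480 the effect differed for 1 member, RPS4X, by 0.76 (SE 0.24, adjusted p = 0.0347), with 13.9% of all genes called. The count was 0 without HT29 KO 38B and also without HT29 WT 11A, and it moved in 8 of the 16 fits that left out 1 library. Between HT29 and HCT116 limma and edgeR called 0 of 78, 3 members reached an unadjusted p under 0.05, and 7.76% of all genes were called. Without HT29 KO 38B this count was 16, and the share of all genes in that fit is not given.

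**Figure D4:**
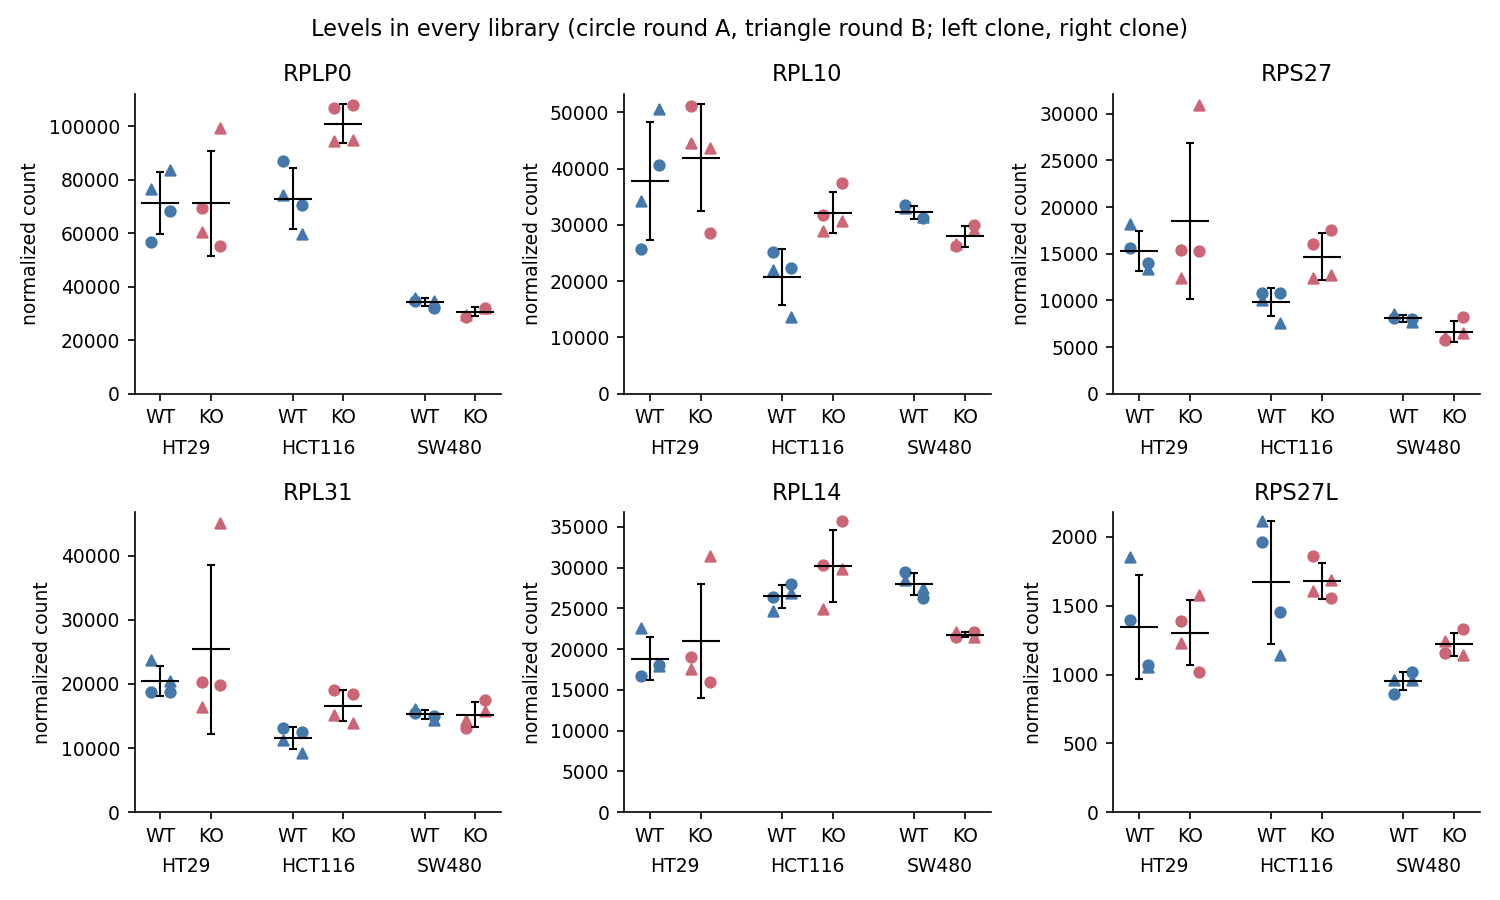
Normalized counts of 6 members are plotted for every library, circles for round A and triangles for round B, the 2 clones of a group side by side, with mean and SD in black. In HCT116 the KO libraries lie above the WT libraries for RPLP0, RPL10, RPS27 and RPL31, and in SW480 they lie below for RPL14 and above for RPS27L.

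WT cells of the 3 lines already differed in the median of these genes, while a smaller share of members than of all genes passed a 2-fold threshold. The median difference of the members was 0.61 on the log2 scale between HT29 WT and SW480 WT, 0.41 between HCT116 WT and SW480 WT and 0.15 between HT29 WT and HCT116 WT, against −0.10, −0.06 and −0.04 over all genes. With a threshold of a 2-fold difference and adjusted p under 0.05, 16 of 79 members (20.3%) differed between HT29 and SW480. Of these, 14 were higher in HT29, and 40% of all genes passed. RPL3L, a paralog of RPL3 known from muscle, was one of the 2 lower members, with 0 to 4.80 normalized counts in HT29 WT and 9.19 to 20.2 in SW480 WT libraries. Between HCT116 and SW480 10 members (12.7%) differed, 9 of them higher in HCT116, with 39.9% of all genes. RPLP0 was in this group, with 72894 ± 11342 normalized counts in HCT116 WT and 34367 ± 1540.0 in SW480 WT (mean ± SD, n = 4 each), a difference of 1.07 (SE 0.15, adjusted p = 1.25e-06). Between HT29 and HCT116 4 members (5.06%) differed, all higher in HT29, with 37.3% of all genes. Among them were RPL21, RPL23 and RPS19, with differences of 1.24, 1.08 and 1.06, which were named after their values were seen.

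Each KO clone was also compared with both WT clones of its line, which its sister KO clone shares as controls, and the error then came from rounds A and B of a clone. In HCT116, 13 of 78 members were called higher and 0 lower in KO 44, with 13.6% of all genes higher and 12.6% lower. In KO 47, 6 were called higher and 0 lower, with 9.43% and 6.73% of all genes. The medians were 0.24 and 0.27. RPL10 had 0.58 in KO 44 (adjusted p = 0.0377) and 0.74 in KO 47 (adjusted p = 0.0187), and RPLP0 had 0.48 (adjusted p = 0.0152) and 0.49 (adjusted p = 0.0203). Directly compared, KO 44 and KO 47 differed in 0 of 78 members by limma and by edgeR, with 2 at an unadjusted p under 0.05 and 7.16% of all genes called. WT 4 and WT 6 differed in 1 member, RPS27L, which was higher in WT 4 by 0.66 (adjusted p = 0.0448), with 2.61% of all genes called. With the round as a block, the counts for KO 44 and KO 47 were 42 and 45. The shares of all genes in these fits are not given, so that the counts cannot be set against them.

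In SW480 the KO clones were unlike each other. In KO 17, 55 of 79 members were called lower, or 69.6%, and 1 higher, with 26% of all genes lower and 28.7% higher, and the median was −0.23. In KO 21, 11 members were called lower and 14 higher, 13.9% and 17.7%, with 27.6% and 32.2% of all genes, and the median was 0.01. Compared directly, 48 of 79 members were lower in KO 17 than in KO 21 and 0 were higher, which is 60.8%, while 28% of all genes were called. At an unadjusted p under 0.05, 57 were lower and 0 higher.

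RPL21, a large subunit protein, had the largest difference between the KO clones among the 79 members and was named after its values were seen. It had 12952 and 14089.6 normalized counts in KO 17A and 17B, and 23489.8 and 23811 in KO 21A and 21B. The WT clones lay between them, with 16218 and 16728 in WT 4A and 4B and 20549 and 22321 in WT 5A and 5B. KO 17 was lower than KO 21 by a log2 difference of −0.81 (SE 0.07, adjusted p = 4.82e-07). WT 4 and WT 5 themselves differed in 7 of 79 members, or 8.86%, with 8.88% of all genes called.

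For RPS4X, SW480 KO 17A and 17B had 39846 and 40903 normalized counts, and KO 21A and 21B 57306 and 52664, next to 51739.6 to 57696 in the 4 WT libraries. Only the libraries of KO 17 were outside the WT range, and the difference between the KO clones was −0.44 (SE 0.06, adjusted p = 8.16e-05). RPS27L, in contrast, was higher than WT by 0.34 in KO 17 (adjusted p = 0.00209) and by 0.37 in KO 21 (adjusted p = 0.000816).

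In HT29, limma and edgeR called 0 of 78 members in KO 28, with 0 at an unadjusted p under 0.05 and 8.16% of all genes higher and 3.34% lower. The median was −0.11, and 62 of 78 values were negative. In KO 38, 5 members were called higher and 0 lower, with 12.5% and 8.83% of all genes, and the median was 0.44. They were RPL26, RPL38, RPL23, RPL23A and RPL27, named after their values were seen. RPL26 had 1327 and 3643 normalized counts in KO 38A and KO 38B, against 668 to 936 in WT and 684 and 729 in KO 28 libraries, so that KO 38A was above the other clones too. Of the coding bases of RPL26, 71.0% lay in exons of another annotated gene. Its pseudogenes held 36.8% of the reads on both, so that its level is uncertain. RPL23A carries a similar reservation. Another annotated gene shares 33.1% of its coding bases, and its pseudogenes held 10.6% of the reads on both. RPL23 had 73754 and 147660 in KO 38A and 38B, against 45826 to 57935 in WT and 39075 and 43708 in KO 28 libraries. RPL26 and RPL23 are large subunit proteins that bind MDM2.

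Between KO 28 and KO 38 the 2 called members were RPL26 and RPL23, both lower in KO 28, with 16% of all genes called. WT 11 and WT 40 differed in 0 of 78 members by limma and by edgeR, 1 of them at an unadjusted p under 0.05, with 9.02% of all genes called. The values of KO 38 carry the doubt about KO 38B. For the counts with a library left out, the share of all genes is not given. Without KO 38B, 7 members were called in KO 28, 6 in KO 38, 7 between the KO clones and 6 between the WT clones. The count of 5 ran from 0, without WT 11A, WT 40A or WT 40B, to 70, without KO 38A, where KO 38B alone stood for the clone and was taken to vary like the others.

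**Figure D5:**
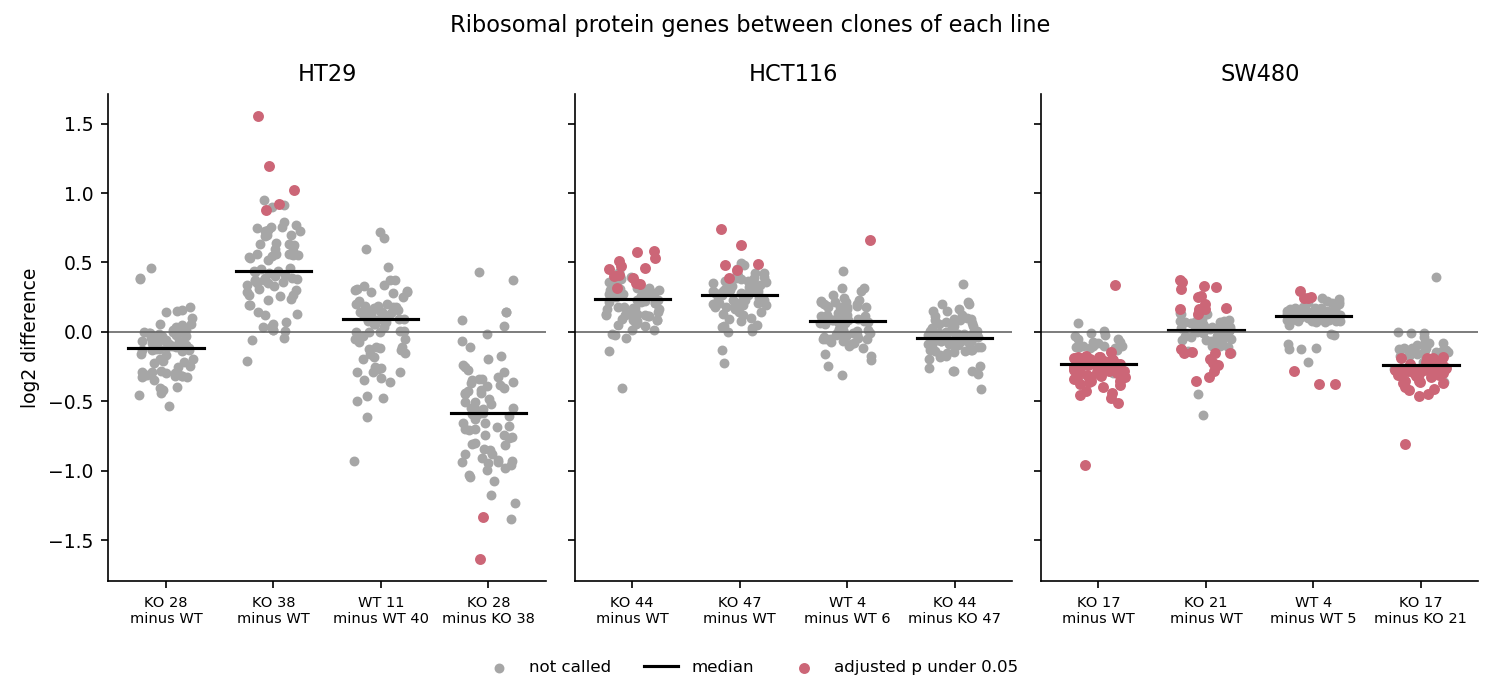
Points are the log2 differences of the tested members in each clone comparison, red where the adjusted p was under 0.05, with black lines for medians. In SW480 most members of KO 17 lie below 0 (median −0.23) and those of KO 21 lie around 0 (median 0.01), whereas in HCT116 both KO clones have medians above 0 (0.24 and 0.27).

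By role, medians are given for the large and the small subunit. The log2 fold change had medians of 0.23 and 0.28 in HCT116, −0.10 and −0.12 in SW480 and 0.16 and 0.16 in HT29 for the large and small subunit. Without KO 38B the HT29 medians were −0.11 and −0.15. Of the 19 genes of Diamond-Blackfan anemia, 3 were called higher and 0 lower in HCT116, or 15.8% higher against 8.05% of all genes. With the round as a block 6 were higher, where 8.89% of all genes were called higher. In SW480 0 were higher and 6 lower, or 31.6% lower against 22.1% of all genes, and in HT29 limma called 0, with 0 at an unadjusted p under 0.05, with and without KO 38B. Among the 4 members on the X chromosome, RPL10 was called higher in HCT116, and RPL10 and RPL39 (−0.24, adjusted p = 0.0457) lower in SW480. That is 25% higher in HCT116 against 8.05% of all genes, and 50% lower in SW480 against 22.1%, from few members.

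Related genes outside the rule were described by the same counts. The shares of all genes called were 8.05% higher and 5.93% lower in HCT116, and 26.1% higher and 22.1% lower in SW480. Of 6 other ribosomal protein genes, 0 were called in HT29 and HCT116 (RACK1 in HCT116 with the round as a block, adjusted p = 0.0315), and in SW480 RPL36AL rose by 0.29 (adjusted p = 0.037) and RACK1 fell by 0.30 (adjusted p = 0.0019). Other mRNAs with a TOP motif include elongation factors. In HCT116, 2 of 16 (12.5%) were called higher and 0 lower. EEF1A1, which delivers aminoacyl-tRNA, rose by 0.49 (adjusted p = 0.0191), and TPT1, which encodes the translationally controlled tumor protein, by 0.54 (adjusted p = 0.00614). In SW480, 6 of 16 (37.5%) were called lower, among them NPM1 with −0.51 (adjusted p = 0.000281) and EEF2 with −0.27 (adjusted p = 0.00628), and 1 higher, the intermediate filament gene VIM with 1.21 (adjusted p = 6.49e-07). In HT29, 0 of 15 were called, and their median was −0.19, or −0.39 without KO 38B.

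Among regulators of the family, MYC fell in both lines with calls. It dropped by 0.49 in HCT116 (adjusted p = 0.0449), from 12384 to 8783 normalized counts, a call that was lost with the round as a block (adjusted p = 0.0515). In SW480 it dropped by 0.80 (adjusted p = 1.12e-05), from 6108 to 3507. EIF4EBP1, the translation repressor that mTOR inactivates, rose by 0.82 in HCT116 (adjusted p = 0.00185) and by 0.54 in SW480 (adjusted p = 0.000284). Of 12 regulators tested in each line, 1 was higher and 1 lower in HCT116, which is 8.33% each against 8.05% and 5.93% of all genes. With the round as a block 1 was higher and 2 were lower, where 8.89% and 7.06% of all genes were called. In SW480 4 were higher and 2 lower, or 33.3% and 16.7% against 26.1% and 22.1% of all genes, and 0 were called in HT29.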

How the data were processed

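RNA of HT29, HCT116 and SW480 clones was sequenced in 24 libraries. The authors used STAR 2.7.5b with the GRCh37 genome for alignment and featureCounts 2.0.1 for counting, and deposited signal values, which are gene counts divided by the DESeq2 size factor of the library. Tables deposited by the authors with the mean signal, log2 fold changes and the p-value of each DEG were not used. Reads were recovered by dividing by the smallest step of a library, and 100% of values came out whole within 0.01.

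Symbols came from GENCODE and were found for 95.8% of identifiers. Because the values are no whole counts, limma 3.58.1 (trend, robust) was applied to log2(value + 1) in place of the edgeR test set for counts. A gene entered a test with a value of 10 or more in 4 or more libraries, out of 8 within a line and out of 24 between lines. The interaction of line and genotype also required this in 4 or more of the 8 libraries of each line compared. Its p-values were adjusted over the genes left. Adjusted p-values (Benjamini-Hochberg, over all tested genes) under 0.05 were called, and DEGs also had an absolute log2 fold change over 1. Fold changes of low genes are understated on this scale. The tests were tried on simulated data first. The other tools were edgeR 4.0.16, DESeq2 1.42.0 and R 4.3.3.

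The members, lists and tests were chosen with earlier results of these data known. Named genes were the 3 called members that rose most and the 3 that fell most in each line, members called in all 3 lines alike or as a DEG, the 3 with the largest difference among those called in opposite directions, the 2 with the highest mean, and members of known role or with a paralog. Some single genes within the counts are not reported here. Floors of 3 reads cover counting error only. Rounds were checked for pairing by correlating, across genes, the round differences of pairs of clones. The correlations were −0.309 to 0.424 in HT29 (2 of 6 over 0.1), 0.182 to 0.374 in HCT116 (6 of 6) and −0.0411 to 0.127 in SW480 (1 of 6), so that rounds were taken to pair the libraries in HCT116 only. Alternatives were other tools, scalings, pseudocounts and filters, the round as a block, clones summed or as a random effect, and each library or clone left out.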

Additional observations from a re-analysis of the deposited data

Results flagged for a closer look

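HT29 KO 38B lay far from the other 3 HT29 KO libraries in its share of reads on members, which was 14.1%. The same gap to the other libraries of the group was found in this library for the normalized counts of RPS27 (30903), RPL31 (44997), RPL11 (52742), RPLP2 (73356), RPSA (58228), RPS27A (109259) and RPL3 (67468), with RPS27A the fusion of a small subunit protein with ubiquitin. SW480 KO 17B was low for RPS10, with 17.4 normalized counts. In all 122 groups of 4 values were examined for the share and 22 named members, and 9 held such a value, 8 of them in KO 38B. Chance gives this in about 1 in 20 groups, and members of 1 library are not independent of each other.

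The KO effect differed between lines for several members, but for a smaller share of them than of all genes. The shares called were 1.28% between HT29 and SW480 and 6.41% between HCT116 and SW480, against 13.9% and 12.1% of all genes. The effect was larger in HT29 than in SW480 for RPS4X, by 0.76 on the log2 scale, a difference not called without HT29 KO 38B or without HT29 WT 11A. It was larger in HCT116 than in SW480 for RPS27 (0.87), RPL10 (0.87), RPLP0 (0.65) and RPL29 (0.62). Between these lines 0 to 5 members were called when a library was left out. RPS4X also differed between the KO clones of SW480, by −0.44 (KO 17 minus KO 21).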

How the results depend on the processing

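Counts in this section show how far a result moved. For most of them no share of all genes is given. No call of 22 named members reversed. They stayed on their side of the threshold in 439 of 494 alternative values in HCT116, 444 of 519 in SW480 and all 494 in HT29, where 56 values without a call changed sign (4 in HCT116, 24 in SW480). Without a filter beyond 1 read, 37 members were higher in HCT116 KO, 39 were called in KO 44, 45 in KO 47, 2 between WT 4 and WT 6, 2 between KO 44 and KO 47, 4 between HT29 KO 28 and KO 38 and 12 between SW480 WT 4 and WT 5. The effects then differed for 1 member between HT29 and HCT116 and for 2 between HCT116 and SW480. With values scaled to total reads, 5 were called between HT29 KO 28 and KO 38 (6 with edgeR), the effects differed for 1 between HT29 and HCT116, and 10 differed between HT29 WT and SW480 WT.

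With the round as a replicate block, 30 were higher in HCT116 KO, and 42 were called in KO 44, 45 in KO 47, 4 between the WT and 3 between the KO clones. With this block 2 differed between HT29 WT and HCT116 WT and 7 between HT29 WT and SW480 WT, and the other counts moved by less than 1.5 times. Single calls of the members RPS27 and RPL39 in SW480 were lost with it, where the rounds shared only a letter.

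With the reads of a clone summed, which leaves 2 clones against 2, 0 were called in HCT116 and 0 higher and 0 lower in SW480, and a random effect for the clone left 0 in HCT116 and 5 lower in SW480. Without clone WT 6 there were 0 higher in HCT116, and without KO 44 1. SW480 had 3 lower without WT 4, 5 higher and 3 lower without KO 17, and 47 lower without KO 21. The median in HT29 was −0.11 without KO 38 and 0.44 without KO 28.

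Leaving out 1 library gave 1 to 23 higher in HCT116 and 6 to 25 lower in SW480. In HT29 it gave 0 to 7 in KO 28, 0 to 70 in KO 38, 0 to 6 between WT and 0 to 69 between KO clones, with the highest of each without KO 38A, also 7 and 6 in KO 28 and between WT without KO 38B. HCT116 had 0 to 15 in KO 44, 0 to 20 in KO 47 and 0 to 1 between WT clones. SW480 had 14 to 25 in KO 21, 2 to 8 between WT and 12 to 49 between KO clones. The effects differed for 0 to 16 members between HT29 and HCT116, 0 to 2 between HT29 and SW480 and 0 to 5 between HCT116 and SW480, and 4 to 10 differed between HT29 WT and HCT116 WT. The share of SW480 WT was 5.93% with a total without the 10 genes with most reads. Where no construction shows it, the cause was not tested. RPL10L, RPL39L and RPL3L had few or no reads at this depth, and whether depth limited their values was not tested.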

Other observations

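The ribosome of mitochondria is built from a separate set of nuclear genes. Of 77 mitochondrial ribosomal protein genes tested in each line, 3 were called higher and 14 lower in HCT116 KO, with a median log2 fold change of −0.12, where the cytosolic members had 0.25. These shares were 3.9% and 18.2%, against 8.05% and 5.93% of all genes. In SW480, 7 were higher and 22 lower, or 9.09% and 28.6% against 26.1% and 22.1% of all genes, with a median of −0.11. In HT29, limma called 0 of 77, 0 of them at an unadjusted p under 0.05, and the median was 0.21. Without KO 38B it called 0, 3 reached an unadjusted p under 0.05 and the median was −0.002.

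Pseudogenes named for members were tested by the same fit where they had reads. In SW480 KO cells 54 of 232 (23.3%) were called lower and 7 (3.02%) higher, with a median of −0.41, while 22.1% and 26.1% of all genes were called. The share called lower was thus near that of all genes. In HCT116 1 of 259 (0.386%) was higher and 1 (0.386%) lower, against 8.05% and 5.93% of all genes, with a median of 0.18. With the round as a block 4 were higher and 1 lower, where 8.89% and 7.06% of all genes were called. In HT29 1 of 268 (0.373%) was higher and 0 were lower, against 2.08% and 0.476% of all genes, with a median of 0.10. Without KO 38B 0 were called and the median was −0.18. Members and their copies are near-identical in sequence, so that the division of reads between them is uncertain.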
